A study of Homo sapiens with 9 samples.

Results

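γH2AX regions of FANCL knockout (KO) K562 cells were compared between 2 libraries of PMA-treated cells and 2 libraries of mock-treated cells. K562 is an established human myelogenous leukaemia line. Per the labels, the KO cells received 5 nM PMA or a mock treatment for 72 h, and chromatin was precipitated with an antibody against γH2AX. These are 4 of the 9 samples of the study. The others are 2 mock and 2 PMA libraries of wild-type (WT) K562 cells and 1 input library of WT mock cells, which served as the control for every region list. The labels do not say whether the 2 libraries of a group came from separate cultures, so the spread between them may be technical, nor whether the KO line is 1 clone. The lists hold no measurement of FANCL or of differentiation markers, so genotype and treatment rest on the labels.

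H2AX is a histone variant that kinases of the DNA damage response phosphorylate around DNA breaks and stalled replication forks. The phosphorylated form, γH2AX, spreads from such a site over the neighbouring chromatin and is read as domains rather than sharp peaks. FANCL is the ubiquitin ligase of the Fanconi anaemia pathway, which attaches ubiquitin to FANCD2 and FANCI at DNA crosslinks. PMA is a phorbol ester that activates protein kinase C and drives K562 cells towards a megakaryocyte-like state.

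On chromosomes 1 to 22 the authors called 24341 and 23884 regions in the KO mock libraries and 42512 and 37561 in the KO PMA libraries. Depth was similar, at 17.8 and 15.6 M (mega) tags in mock and 18.3 and 16.0 M in PMA. Called regions summed to 17.2 Mb in each mock library. The PMA libraries stood above both, at 42.3 and 34.3 Mb. The means were 17.2 ± 0.0629 and 38.3 ± 5.64 Mb (SD, n = 2 each), a ratio of 2.22. An exact permutation test, two-sided, gave p = 0.333, and 2 libraries against 2 cannot give a smaller one. The approximate immunoprecipitation efficiency in the file headers was 3.42 and 3.67% in mock and 7.96 and 6.69% in PMA. It tracks the covered length and the tags inside the regions, so it is not a separate measure of the precipitation. More γH2AX and a more efficient precipitation cannot be told apart in these lists. Inside the regions the tag density hardly differed, at 18.7 and 19.8 tags per kb (per 10 M tags) in mock and 18.6 and 19.3 in PMA. A minimum tag number per 500-bp window sets a floor under that density.

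To tell new regions from widened ones, the regions of the 4 KO libraries were merged into 82124 loci wherever they shared at least 1 bp. A locus was called new when both PMA libraries and neither mock library had a region in it, and lost in the opposite case. There were 7052 new and 1584 lost loci, and 3914 loci were called in all 4 libraries. Both PMA libraries and 1 mock library called another 4344 loci, and both mock libraries and 1 PMA library called 1412. Most loci were seen once: 37840 in 1 PMA library only and 20088 in 1 mock library only. These single calls covered 12.99 and 9.95 Mb of the PMA libraries and 5.67 and 5.54 Mb of the mock libraries.

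**Figure D1:**
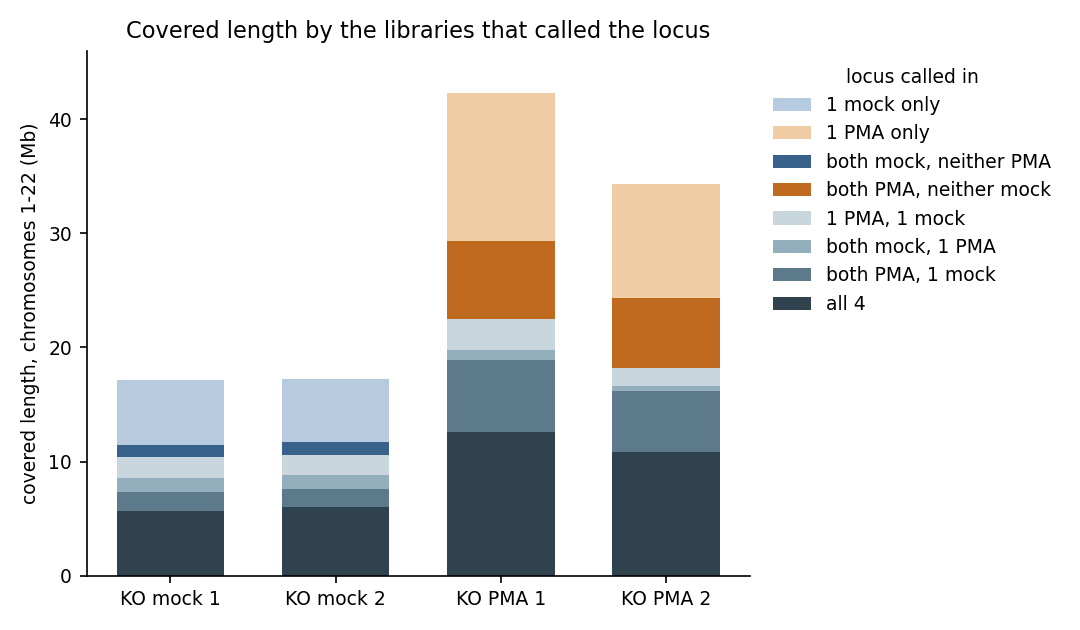
Covered length of chromosomes 1 to 22 in Mb (y axis) in each of the 4 KO libraries (x axis), stacked by which KO libraries called the locus. Loci called in all 4 libraries cover 5.71 and 6.05 Mb of the mock libraries, 12.6 and 10.8 Mb of the PMA libraries, and new loci cover 6.85 and 6.17 Mb of the PMA libraries.

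Whether widening or new loci held more of the added length depended on how the PMA libraries were combined. Positions called in both PMA libraries and in neither mock library summed to 9.49 Mb. Of this, 5.57 Mb (58.7%) lay in loci that at least 1 mock library had called, and 3.92 Mb (41.3%) in new loci. Within the widened loci, 3.56 Mb lay outside the outermost mock regions and 2.01 Mb filled gaps between mock regions. Positions called in both mock libraries and in neither PMA library summed to 1.21 Mb, of which 0.677 Mb lay in lost loci. With each PMA library taken alone against both mock libraries, the order was the other way round, and new loci held 66.1 and 69.3% of the added length. The split also depended on how loci were drawn and filtered. New loci held 26.4% of the added length when regions up to 1000 bp apart were merged, 60.0% when only regions of 1000 bp or more were kept, and 90.2% when only those enriched 6-fold or more were.

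Among the 3914 loci called in all 4 libraries, 55.2% were longer in both PMA libraries than in both mock libraries. In these loci the median called length was 1000 and 1025.5 bp in the mock libraries and 2170.5 and 1758.5 bp in the PMA libraries. The median ratio of mean PMA to mean mock length was 1.81, with quartiles of 1.12 and 2.82. Both PMA libraries were longer than both mock libraries at 2159 loci and shorter at 245 (6.26%), and the libraries overlapped at 1510. The strongest window of these loci differed little, at a median of 8.98 and 9.61 tags per 10 M in mock and 9.31 and 10.0 in PMA. Among regions enriched 6-fold or more the median ratio was 1.08. For other loci called in both mock libraries, the class definitions limit the length after PMA. The 1412 with a region in 1 PMA library held 1.21 and 1.17 Mb before PMA and 0.823 and 0.417 Mb after it. Each of these loci is missing from 1 PMA library by definition. Where they were called, their median length was 644.5 and 636.5 bp in mock and 695.5 and 634 bp in PMA. The 1584 lost loci hold none after PMA by definition.

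**Figure D2:**
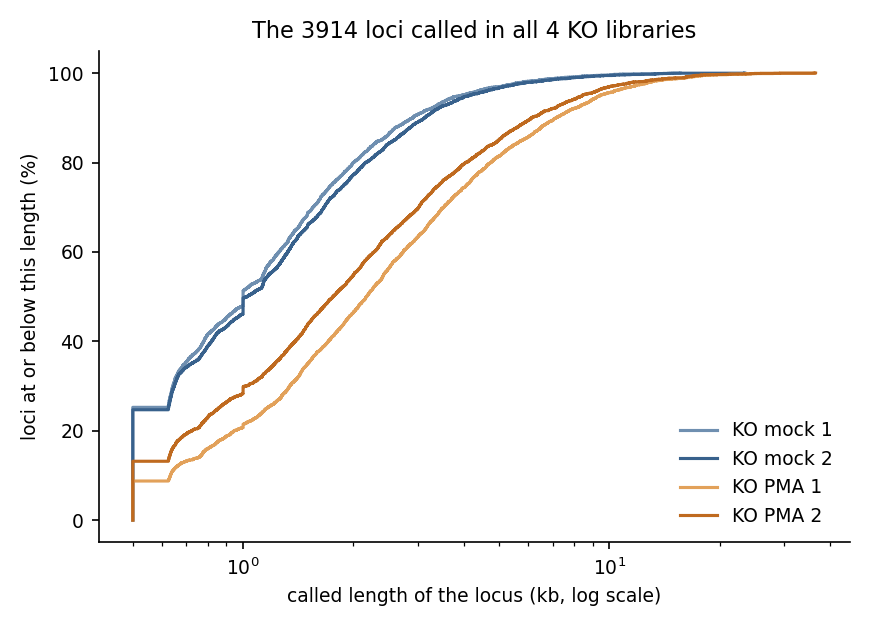
Share of loci in percent (y axis) at or below a called length in kb (x axis, log scale), for the 3914 loci called in all 4 KO libraries, 1 line per library. Both PMA lines lie to the right of both mock lines over most of the range, with medians of 2170.5 and 1758.5 bp against 1000 and 1025.5 bp.

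The 5 loci with the largest mean gain in length were scattered short regions in mock and near-continuous blocks after PMA. The locus on chromosome 19 from 49404498 to 49430560 held 4.31 kb in 5 regions and 2.91 kb in 2 regions in mock, and 23.6 kb in 4 regions and 24.3 kb in 3 regions in PMA. On chromosome 11, the locus from 65155479 to 65184077 held 4.72 and 6.59 kb in mock and 28.0 and 22.4 kb in PMA. These loci were not covered to this extent in WT cells: WT PMA libraries held 1.22 and 0 kb of the first and 0 kb of the second. Chromosome 19 as a whole held 1.25 and 2.07% of covered length in WT PMA and 16.6 and 17.0% in KO PMA. The low WT value on chromosome 19 is therefore not particular to this locus. The locus on chromosome 9 from 139407517 to 139433205 held 5.43 and 4.12 kb in mock and 22.9 and 24.9 kb in PMA. On chromosome 6, from 31589338 to 31619847, mock libraries had 12 and 9 short regions of 10.3 and 11.0 kb in all, while each PMA library had 2 regions, of 29.2 and 29.2 kb in all. Here the gaps between mock regions were almost entirely filled. The locus on chromosome 1 from 27901911 to 27928851 held 7.93 and 4.95 kb in mock and 23.5 and 25.9 kb in PMA. The groups did not overlap at any of the 5 loci, which were chosen for this gain.

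**Figure D3:**
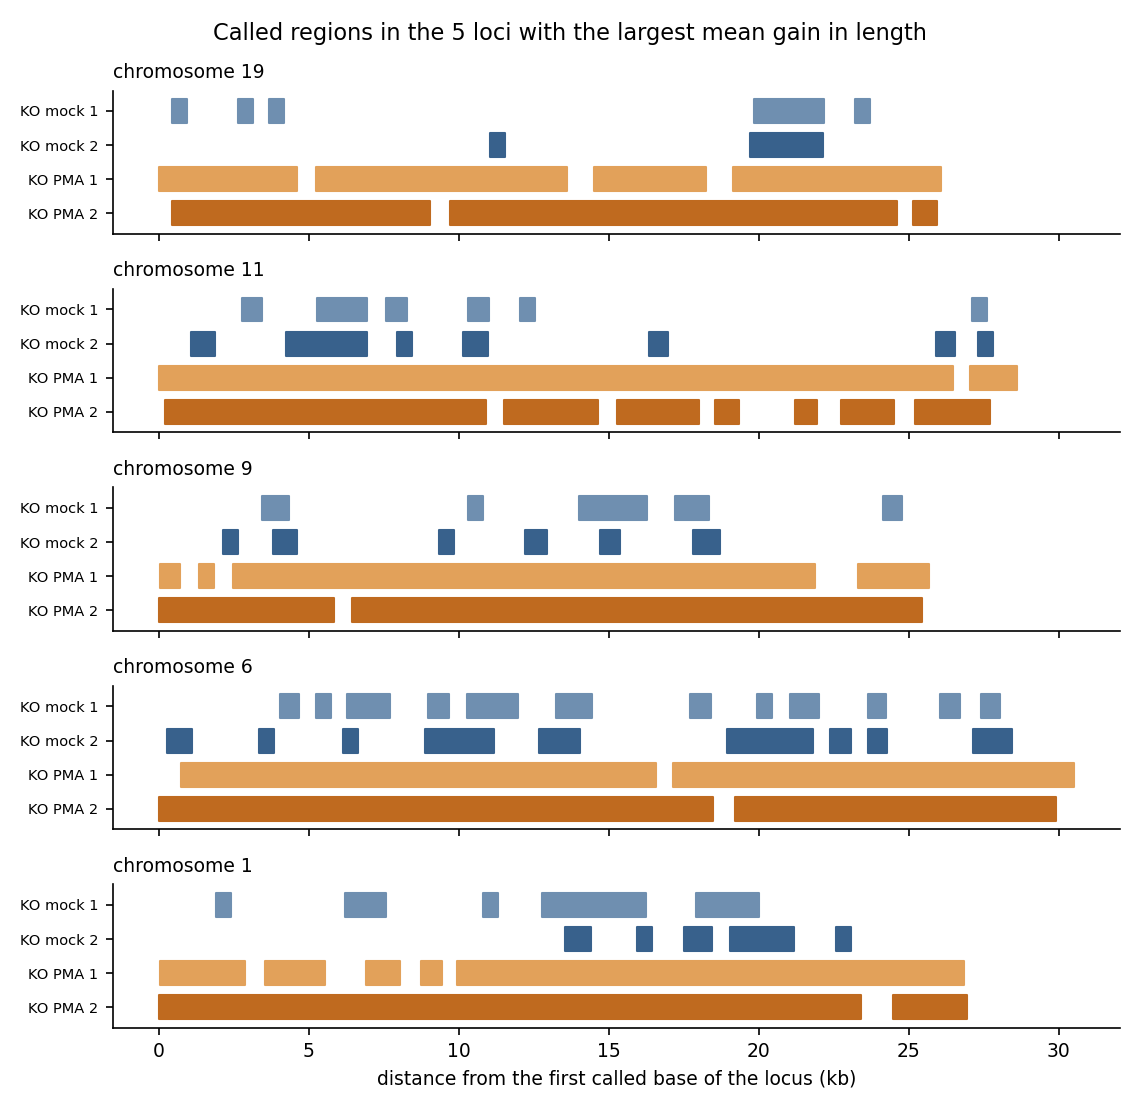
Called regions (bars) in the 4 KO libraries (rows) across the 5 loci with the largest mean gain, against the distance in kb from the first called base of each locus. Short separate mock regions lie inside long PMA blocks, as on chromosome 6, where 12 and 9 mock regions face 2 regions in each PMA library.

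Regions of at least 5 kb often spanned several mock regions. There were 40 and 43 of them in the mock libraries and 661 and 393 in the PMA libraries. Of the PMA ones, 644 and 387 touched a mock region, and 547 and 320 touched 2 or more. The median number of mock regions these long regions touched was 3 in each PMA library. Of all PMA regions, 68.4 and 68.0% touched no mock region, and 1882 and 1421 touched 2 or more. A long region can touch more mock regions by its length alone, so these counts do not by themselves show joining.

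New loci were short and close to the calling threshold. Their median called length was 681 and 643 bp in the PMA libraries, and 997 (14.1%) were at least 1 kb in both. Of the lost loci, 63 (3.98%) were at least 1 kb in both mock libraries. At 3 kb the counts were 45 new and 0 lost loci. The strongest window reached 1.5 times the highest KO tag threshold in both libraries at 1.83% of new and 6.50% of lost loci. Among loci called in all 4 libraries, it did so in all 4 at 4.93%. Closeness to the threshold was therefore not particular to new loci. New loci lay close to regions already present: 62.4% were within 5 kb of a mock region, 80.4% within 10 kb, and 39 lay beyond 100 kb. Lost loci were within 5 kb of a PMA region at 60.3%, a similar share. The number of new loci depended on the threshold, and 3697 were left, beside 1645 lost loci, when all libraries had to reach the same tag threshold.

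The longest new loci were blocks with no mock region at all. On chromosome 17, from 42193180 to 42200084, PMA libraries held 6.40 and 6.38 kb, at 3.22- and 2.95-fold over input. Chromosome 6 had one from 31737907 to 31744176 with 6.05 and 6.15 kb. The other 3 were on chromosome 19. They held 6.53 and 4.92 kb from 49689479 to 49696137, 5.33 and 5.84 kb from 2052124 to 2059569, and 6.29 and 4.86 kb from 41121752 to 41129405. In the WT libraries these 5 loci held 0.5 kb or less. All 5 had modest enrichment, between 2.64- and 5.23-fold. Of the 10 new loci named here, by length or by fold, 4 were still new with one tag threshold. With equal numbers of regions from all libraries 2 were. At 6-fold or more 5 were still new, and at 1000 bp or more 5 were. These last counts follow from how the loci were picked. Those picked by length lie below 6-fold, and those picked by fold are shorter than 1000 bp.

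The new loci with the highest fold were of another kind, with 1 short region each. The locus on chromosome 15 from 41770784 to 41771486 reached 36.7- and 37.2-fold over input with 9.86 and 10.0 tags per 10 M. On chromosome 17, that from 8365095 to 8365814 reached 34.6- and 44.2-fold. The lower of its 2 folds was 30.2 for a locus on chromosome 16 that spanned 89996629 to 89997254. It was also 30.2 on chromosome 17 (62099110 to 62099612) and 28.5 on chromosome 14 (24724354 to 24724994). Among lost loci, the highest folds were 31.3 and 38.1 on chromosome 2 from 166789892 to 166790673, and 41.7 and 31.0 on chromosome 18 from 77672588 to 77673340. The lower fold was 27.1 on chromosome 12 (114338056 to 114338683), 26.2 on chromosome 19 (54378961 to 54379466) and 26.2 on chromosome 6 (34788073 to 34788627). All of them held between 7.05 and 11.9 tags per 10 M. Among these loci the fold rose in proportion to the tags, from 26.2 at 7.05 tags to 44.2 at 11.9. The input value behind the fold was thus about the same at all of them. Their high folds go with a low input value and few tags, and do not mark many tags. Over all new loci the highest fold of a locus had a median of 4.07 and 4.32 in the PMA libraries. The input tags under the named loci were not examined directly. None of the 5 lost loci was still lost with equal numbers of regions. At 1000 bp or more none could be, since their mock regions were 500 to 670 bp long.

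Across bins of 100 kb, more bins gained than lost covered length. Of 9474 bins tested on chromosomes 1 to 22 in limma, 1239 were higher after PMA (13.1% of those tested) and 508 lower (5.36%), at an adjusted p of 0.05. Over all tested bins the median difference was 0.21 on the log2(covered bp + 1000) scale, and after centring each library on its median the counts were 1442 higher and 394 lower. With one tag threshold for all libraries they were 839 and 668. The raised bins together held 3.87 and 3.95 Mb of called regions before PMA and 20.7 and 17.4 Mb after it. Mock libraries had called regions in most of them: in both libraries for 891, in 1 for 148 and in neither for 200. The lowered bins held little to begin with, at 1.20 and 1.29 Mb in all in mock, and 376 of them were at 0 in both PMA libraries. Leaving out KO PMA replicate 1 reduced the counts to 365 higher and 266 lower bins, and leaving out replicate 2 to 623 and 284. Without KO mock replicate 1 or 2 there were 588 and 586 higher bins.

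**Figure D4:**
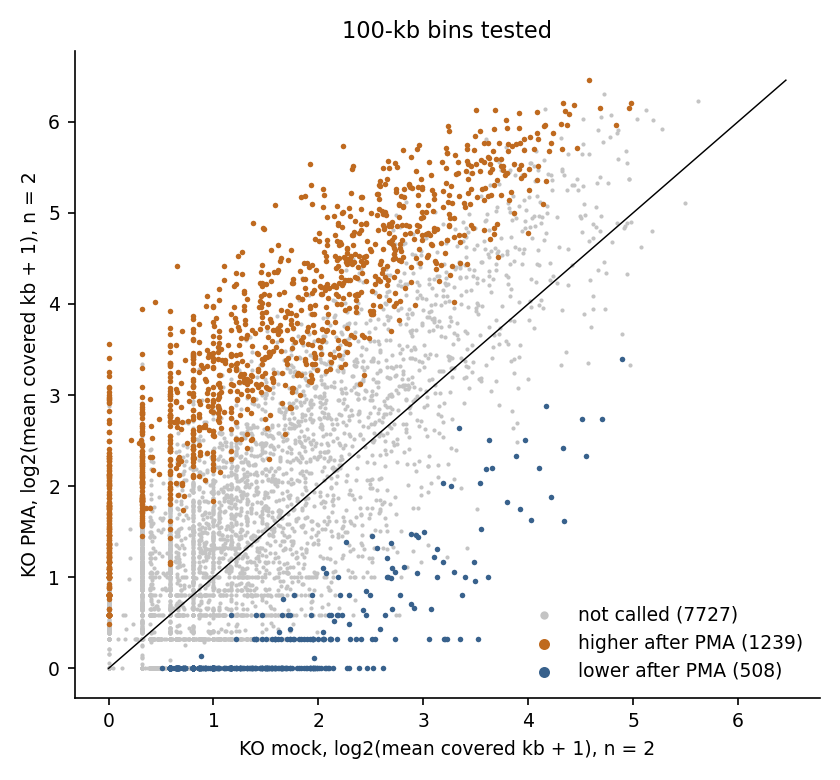
Mean covered length per 100-kb bin in KO mock (x axis) and KO PMA (y axis), both as log2(kb + 1), for 9474 tested bins, with the line of equal length. The 1239 raised bins span the range of mock coverage, while 376 of the 508 lowered bins lie at 0 in both PMA libraries.

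The raised bins with the largest differences went from almost nothing to 10 kb or more of γH2AX in most cases. The bin on chromosome 14 from 23400001 to 23500000 held 0 and 1.15 kb in mock and 19.9 and 20.7 kb in PMA (log2 difference 3.86, SE 0.39, limma adjusted p = 0.00408). On chromosome 19 from 47600001 to 47700000, mock libraries held 2.69 and 0.5 kb and PMA libraries 30.0 and 27.1 kb (3.65, SE 0.43, limma adjusted p = 0.00663), a call lost without KO PMA replicate 1 (0.053). Both PMA libraries stood above both mock libraries in these bins, which the choice of named bins required. Chromosome 1 held 3 such bins. From 155700001 to 155800000 the values were 0.5 and 0 kb in mock and 13.04 and 15.9 kb in PMA. From 161100001 to 161200000 they were 0.724 and 0 kb against 16.5 and 13.9 kb, a call that was lost when any 1 of the 4 KO libraries was left out (limma adjusted p = 0.0572 to 0.0948). From 28500001 to 28600000 they were 1.30 and 2.24 kb against 22.6 and 32.5 kb. On chromosome 12, the bin from 56700001 to 56800000 went from 1.79 and 0.5 kb to 19.2 and 21.6 kb, a call lost without KO PMA replicate 1 or 2 (limma adjusted p = 0.0613 and 0.0557). That from 122500001 to 122600000 was at 0 in both mock libraries and at 14.9 and 6.68 kb in PMA, and that on chromosome 22 from 26900001 to 27000000 at 0 in both and at 9.73 and 9.47 kb. The PMA libraries agreed less on chromosome 12 than on chromosome 22, and the chromosome 12 call was lost without KO mock replicate 1 or 2 or KO PMA replicate 1 (limma adjusted p = 0.0712 to 0.0718).

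The lowered bins with the largest differences had about 5 to 20 kb in mock and nearly none after PMA. The bin on chromosome 5 from 1600001 to 1700000 held 11.4 and 9.53 kb in mock and 0 and 0.5 kb in PMA (log2 difference -3.22, SE 0.27, limma adjusted p = 0.00234). On chromosome 2 from 3100001 to 3200000 the values were 19.0 and 19.5 kb in mock and 2.50 and 1.64 kb in PMA (-2.73, SE 0.27, limma adjusted p = 0.00384). This was the most covered of the 8 lowered bins named here. Chromosome 8 from 143400001 to 143500000 went from 6.26 and 12.2 kb to 0.5 and 0 kb, and chromosome 16 from 900001 to 1000000 from 6.36 and 9.94 kb to 0.5 and 0 kb. On chromosome 6 from 300001 to 400000, mock libraries held 11.1 and 11.5 kb and each PMA library 1 kb. The bin on chromosome 22 from 23200001 to 23300000 held 4.97 and 9.64 kb in mock and 0 and 0.5 kb in PMA, a call lost without KO mock replicate 2 or KO PMA replicate 1 (limma adjusted p = 0.0564 and 0.0783). On chromosome 1 from 6100001 to 6200000 it was 8.22 and 8.26 kb against 0.5 and 0 kb, and on chromosome 7 from 158100001 to 158200000 9.07 and 9.54 kb against 0.5 and 1 kb. The calls for chromosomes 1 and 7 were lost when any 1 KO library was left out (limma adjusted p = 0.079 to 0.124). When only regions enriched 6-fold or more were kept, 13 of the 15 named bins that could be tested lost their call. In a fit of the KO libraries alone 5 of the 16 did: those on chromosomes 8 and 16, on chromosome 22 from 23200001, on chromosome 19, and on chromosome 12 from 122500001 (limma adjusted p = 0.0649, 0.0502, 0.0721, 0.066 and 0.0539). With equal numbers of regions the chromosome 16 bin also lost its call (limma adjusted p = 0.0839). So did the raised bins on chromosome 1 from 155700001 and from 161100001 (limma adjusted p = 0.105 and 0.395). The bin from 155700001 lost its call with regions of 1000 bp or more as well (limma adjusted p = 0.0966).

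Some raised bins lay next to each other. In all, 42 runs of at least 5 neighbouring raised bins held 289 of the 1239, while 450 stood alone. The longest run spanned 1.9 Mb of chromosome 19, from 48600001 to 50500000, and held 130 and 118 kb in mock and 813 and 728 kb in PMA. It includes the most widened locus and the third longest new locus. Within it, 274 kb of the added length was widening and 102 kb new loci. Others lay on chromosome 1 from 155500001 to 156900000 (34.5 and 38.8 kb in mock, 310 and 249 kb in PMA) and from 26800001 to 28000000 (100 and 91.3 kb against 491 and 452 kb). On chromosome 12, from 56100001 to 57200000, mock libraries held 25.9 and 28.6 kb and PMA libraries 223 and 183 kb. In WT cells the longest run held 4 and 6.18 kb in mock and 13.8 and 19.1 kb in PMA. All of chromosome 19 held only 1.33 and 2.44% of covered length in WT mock and 1.25 and 2.07% in WT PMA.

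Lowered bins formed 5 such runs, mostly towards chromosome ends. The longest lay on chromosome 7 from 157400001 to 158400000, with 63.1 and 62.8 kb in mock and 9.52 and 3.21 kb in PMA. On chromosome 2 from 2500001 to 3200000 the values were 36.4 and 36.6 kb against 3.50 and 1.64 kb, and on chromosome 5 from 1200001 to 1700000 71.2 and 67.2 kb against 14.4 and 12.1 kb. Chromosome 1 from 2600001 to 3300000 held 8.39 and 16.0 kb in mock and 0.5 and 0 kb in PMA. Bins within 5 Mb of the start of a chromosome (short arms of acrocentric chromosomes left out) or of its last called position made up 34.3% of the lowered bins, 10.9% of the raised bins and 13.2% of those tested. Only bins with called length in mock can be lowered, and these shares were not tested.

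By chromosome, the response was uneven. Covered length was higher in both PMA than in both mock libraries on 19 of 22 chromosomes and lower on none. As a share of all covered length, 5 chromosomes rose (22.7%) and 9 fell (40.9%) in limma on log2 shares, at an adjusted p of 0.05. Shares sum to a fixed total, so some must fall where others rise. The 5 were chromosomes 9, 11, 12, 14 and 17. Chromosome 11 held 6.20 and 6.08% in mock and 7.43 and 7.50% in PMA (log2 difference 0.28, SE 0.09, limma adjusted p = 0.0267), and chromosome 17 6.94 and 7.11% against 9.12 and 8.89% (0.36, SE 0.14, limma adjusted p = 0.04997). Chromosomes 2, 4, 5, 7, 8, 13, 18, 21 and 22 fell. Chromosome 13 held 0.500 and 0.475% in mock and 0.207 and 0.155% in PMA (-1.44, SE 0.14, limma adjusted p = 6.7e-05). Chromosome 21 held 3.21 and 3.07% against 1.48 and 1.51% (-1.07, SE 0.11, limma adjusted p = 6.7e-05). Chromosome 5 went from 4.47 and 4.30% to 2.49 and 2.52%. The calls for chromosomes 9, 11, 12 and 17 were lost when any 1 KO library was left out (for chromosome 11, limma adjusted p = 0.0945 to 0.14, and for chromosome 17, 0.135 to 0.191). That for chromosome 14 was lost without KO mock replicate 1 or either PMA library, and among the shares that fell, chromosome 22 lost its call without KO mock replicate 1 or 2 or KO PMA replicate 1, chromosome 7 without KO PMA replicate 1 and chromosome 8 without KO mock replicate 2. The count of raised shares was 0 with one tag threshold for all libraries, where 8 fell.

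Chromosome 19 held the largest share after PMA. It was 10.8 and 11.8% in mock and 16.6 and 17.0% in PMA without overlap, but the difference did not pass the test (log2 0.57, SE 0.29, limma adjusted p = 0.108). It did pass in a fit of the KO libraries alone (limma adjusted p = 0.000719) and with equal numbers of regions (0.00395). Among regions enriched 6-fold or more the log2 difference was -0.00044. In length, chromosome 19 went from 1.85 and 2.03 Mb to 7.01 and 5.85 Mb. It had 1085 new and 69 lost loci, a ratio of 15.7, and 142 of its 379 tested bins were raised (37.5%). On chromosomes 13, 18 and 21 lost loci outnumbered new ones, at 15 against 6, 32 against 25 and 72 against 62.

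**Figure D5:**
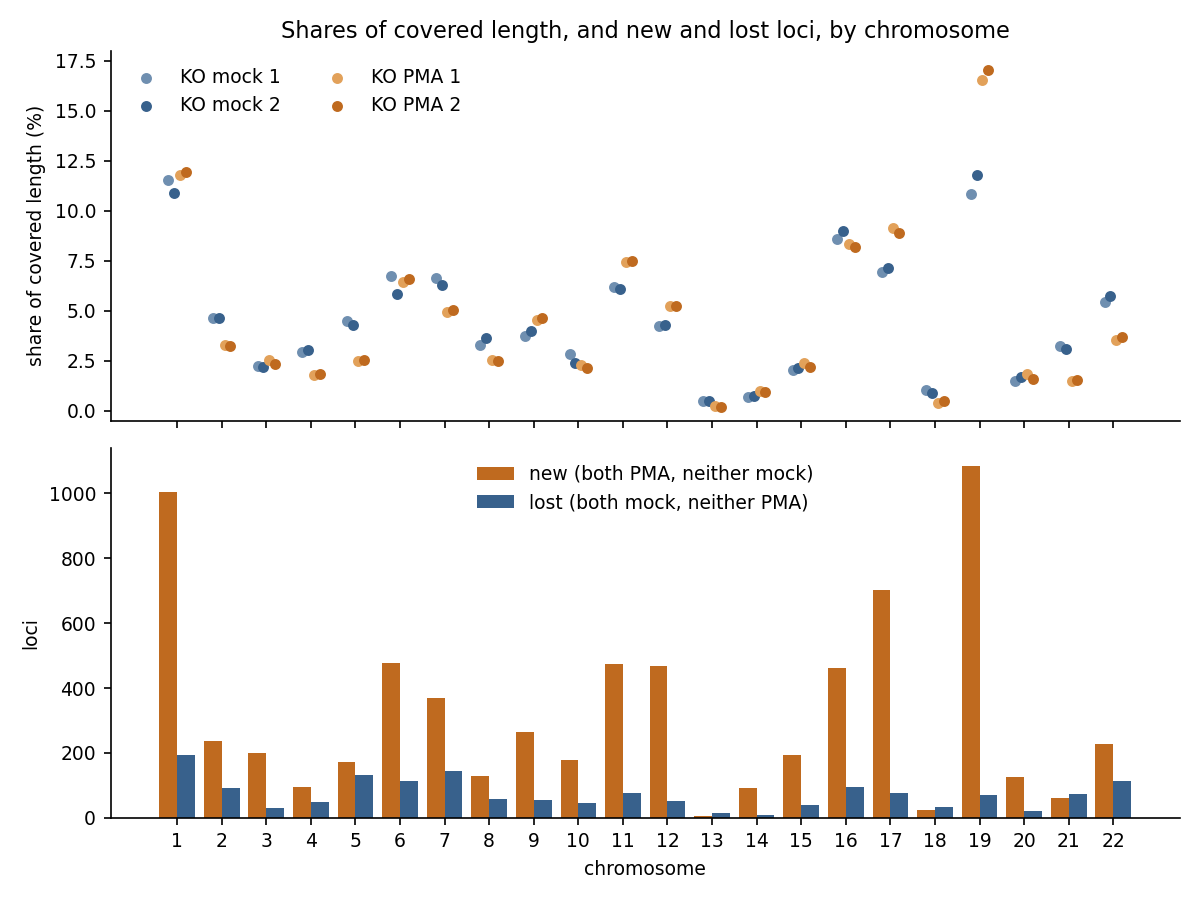
Upper panel, share of covered length in percent (y axis) of each chromosome (x axis) in the 4 KO libraries, 1 point per library. Lower panel, number of new and lost loci (y axis) per chromosome. Chromosome 19 stands highest after PMA, at 16.6 and 17.0%, and has 1085 new loci.

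WT cells were compared only to see where the KO response differed. Of the 1239 bins raised in KO, 581 (46.9%) were also raised by PMA in WT, where 32.2% of the tested bins were raised. Of the 508 lowered in KO, 53 (10.4%) were also lowered in WT, where 2.30% were. The difference between genotypes was tested as an interaction in the same limma fit. The response was larger in KO than in WT at 3.67% of tested bins and smaller at 12.7%. Among the raised bins, 246 rose more in KO than in WT and 28 less. These bins were picked on the KO values that also enter the interaction, so the counts say nothing of how often the genotypes differ. Most positions added in KO were not called in WT cells, but they were called there more often than positions at large. WT regions covered 0.334 and 0.284% of all positions of chromosomes 1 to 22 in WT mock and 1.09 and 0.860% in WT PMA. Of the added positions in new loci, 3.17 and 2.98% were called in WT mock and 12.03 and 10.8% in WT PMA. Of those in widened loci, 1.99 and 2.60% were called in WT mock and 7.57 and 8.57% in WT PMA. Positions dropped in lost loci were also called more often than positions at large, at 7.14 and 10.8% in WT mock and 7.91 and 9.88% in WT PMA. The excess was therefore not particular to added positions.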

How the data were processed

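The genome build (hg19) and the tools CASAVA 1.4, BWA and HOMER are named in the submitters' processing notes. HOMER was run by the authors on every library, per the file headers, with the WT mock input as control: windows of 500 bp, a tag threshold by depth (probability 0.001), at least 2-fold over input (probability 0.0001), 1 tag per bp. No KO or PMA input was used as control, so copy number that differs from WT mock is not corrected. The deposited tag signal is normalised by the authors to 10 M tags. The deposited fold is the authors' ratio to input, the deposited score is HOMER's region score, read here as the tags of its strongest window, and the deposited tag count per region is unscaled in all KO libraries. Fold, score and tags are the authors' own values and only described or filtered regions.

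Covered bp per 100-kb bin, for bins covered in at least 2 of 8 libraries, were fitted in limma 3.58.1 (R 4.3.3) with a mean-variance trend, as log2(bp + 1000), in 1 fit of 4 groups. The 9552 bins tested include chromosome X, and p-values were adjusted over them by Benjamini-Hochberg. Neighbouring bins are not independent, and this scale understates differences of little-covered bins. Log2 shares per chromosome were fitted with the same 4 groups, but without the trend, the added 1000 bp or the coverage filter. Their p-values were adjusted over the 22 chromosomes. Other steps used Python 3.11.15, and the scripts were tested on simulated data. Bins named are the 8 with the largest difference in each direction, at most 1 per 5 Mb. Loci named are 5 of each kind, at most 1 per Mb.

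The members and lists were chosen with earlier results of these data known. The runs of bins, the window of 5 Mb at chromosome ends, distances, the counts at 1, 3 and 5 kb, the multiple of the threshold and the split into flanks and gaps were added after seeing the data. An hg19 annotation and genome were not used here, so no gene was assigned to a locus, the comparison by gene was not made and no sequence is printed.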

Additional observations from a re-analysis of the deposited data

Results flagged for a closer look

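In 8 named bins the interaction term of PMA and genotype passed the threshold in limma. It is given here as KO minus WT on the log2 scale. All 8 were chosen for large differences in KO. It was 2.38 on chromosome 14 from 23400001 (3.86 in KO, 1.48 in WT, adjusted p = 0.046), 3.45 on chromosome 19 from 47600001 (3.65 and 0.20, adjusted p = 0.0234) and 2.91 on chromosome 22 from 26900001 (3.41 and 0.50, adjusted p = 0.0216). The bin on chromosome 5 from 1600001 moved in opposite directions, -3.22 in KO and 1.29 in WT, a difference of -4.51 (adjusted p = 0.00308). WT libraries held 0 and 0 kb in mock and 1.20 and 1.71 kb in PMA there. The difference was -2.997 on chromosome 8 from 143400001, where all 4 WT libraries were at 0. It was -2.58 on chromosome 16 from 900001, -2.44 on chromosome 2 from 3100001 and -1.76 on chromosome 6 from 300001 (limma adjusted p of 0.0302, 0.0158 and 0.0461). WT mock libraries held 0 and 0.5 kb in the bins on chromosomes 16 and 2 and none in that on chromosome 8, so WT could not fall there, and these 3 differences do not show unlike responses. The chromosome 5 bin was also at 0 in WT mock. The chromosome 6 bin held 15.6 and 19.9 kb in WT mock and 6.85 and 12.4 kb in WT PMA.

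Shares of covered length also differed in their response. The difference was -1.02 for chromosome 2 (-0.51 in KO, 0.51 in WT), -0.92 for chromosome 5 (-0.81 and 0.12), -0.64 for chromosome 8 (-0.46 and 0.18), 0.46 for chromosome 11 (0.28 and -0.18) and 0.79 for chromosome 17 (0.36 and -0.43). Chromosomes 14 and 15 gained less in KO than in WT, at -0.61 (0.44 and 1.05) and -0.67 (0.11 and 0.78). The limma adjusted p lay between 0.00124 and 0.031.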

How the results depend on the processing

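Covered length was higher after PMA under all 8 alternatives run (log2 ratio 0.72 to 1.93, main 1.15). The other results depended on the calling. With one tag threshold there were 3697 new loci, holding 36.7% of the added length. With regions enriched 6-fold or more there were 732 new and 265 lost loci, a 90.2% share of added length in new loci, a median length ratio of 1.08, and 223 higher and 141 lower bins. With regions of 1000 bp or more there were 2495 new and 210 lost loci, a share of 60.0%, and 88 lower bins. With equal numbers of top-scoring regions there were 1520 new and 1087 lost loci, a share of 34.6%, a length ratio of 2.07, and 271 higher and 232 lower bins. Merging across gaps of up to 1000 bp gave a share of 26.4%. Raised bins numbered 1893 with bins of 50 kb, 824 with bins of 200 kb, 777 with a pseudocount of 200 bp and 781 with the KO libraries only, which gave 316 lower bins. Raised chromosome shares numbered 0 with one tag threshold, and 2 when shorter regions than 1000 bp were dropped. The cause was not tested.

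Chromosome shares turned sign for chromosome 3 (-0.0288 with one tag threshold, -0.34 with equal numbers of regions), chromosome 6 (-0.0164 at 6-fold, and -0.0450 to 0.165 when 1 KO library was left out, negative without KO mock replicate 2), chromosome 10 (0.0646 with regions of 1000 bp or more), chromosome 15 (-0.0751 with one tag threshold and -0.0777 with equal numbers), chromosome 16 (0.0628 with equal numbers), chromosome 19 (-0.00044 at 6-fold), chromosome 20 (-0.12 with one tag threshold, -0.41 with equal numbers) and chromosome 22 (0.45 at 6-fold). Only chromosome 22 was called in the main analysis.

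Leaving out 1 KO library gave 9239 to 29080 new and 2162 to 11966 lost loci, since 1 library then stands for its group. The share of added length in new loci was 48.4 to 69.3%, the length ratio 1.4004 to 1.79, higher bins 365 to 623, lower bins 266 to 459, and raised chromosome shares 0 to 1.

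Same-numbered KO mock and KO PMA libraries did not deviate together (correlation of deviations -0.012 over 9474 bins), so the numbers were not taken as pairs. With the replicate block there were 1073 higher and 433 lower bins, of which 986 and 419 were among the main calls. Under the block the shares of chromosomes 19 and 10 also passed (limma adjusted p = 0.0128 and 0.0486). The comparison by gene and its alternatives were not run. Mean depth differed little between the groups (PMA over mock 1.02), and no library was thinned.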
